A study of Arabidopsis thaliana with 24 samples.

Results

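The chloroplast and the mitochondrion of Arabidopsis thaliana each keep a small genome of their own, and the rows described here are the genes of those 2 genomes. They were chosen by their identifiers: a row whose ID starts with ATCG lies in the chloroplast genome and a row whose ID starts with ATMG lies in the mitochondrial genome. The count table held 133 chloroplast rows and 146 mitochondrial rows, 279 members among 33602 genes. RNA of whole seedlings was sequenced from 2 accessions, the laboratory accession Col-0 and the natural accession IP-Svi-0. Seedlings of both accessions were raised on MS medium and collected 23 days after transfer to 10 °C, 12 days after transfer to 16 °C, 8 days after transfer to 23 °C and 7 days after transfer to 27 °C, with 3 libraries in each of the 8 groups. Temperature therefore cannot be told apart from age, and the labels do not say whether the 3 libraries of a group came from separate cultures, so the p-values measure the spread between these libraries. The study looked for genes that differ between the accessions, with the early flowering of IP-Svi-0 in view. The libraries were strand-specific mRNA libraries.

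Plastid genes are transcribed by a bacterial-type polymerase, which needs nuclear-encoded sigma factors and associated proteins, and by a phage-type polymerase, which is also nuclear-encoded. Mitochondrial genes are transcribed by phage-type polymerases. In both organelles a poly(A) tail marks an RNA for decay, whereas in the cytosol it stabilises an mRNA, so libraries made from polyadenylated RNA hold only a small and selected part of organelle RNA. Ribosomal RNA is the most abundant RNA of either organelle. In the chloroplast genome a large inverted repeat holds the ribosomal RNA genes in duplicate, and in Col-0 chromosome 2 carries a large copy of the mitochondrial genome. A read from such a stretch fits more than 1 place, and a counter that accepts unique placements only sets it aside from the genes.

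The inverted repeat was measured in the RefSeq assembly TAIR10.1. Its 2 copies lay at Pltd:84171-110434 and, on the other strand, at Pltd:128215-154478, each 26264 bases long, with 0 differences between them, and together they made up 34.0% of the 154478 bases of the chloroplast genome. The annotation placed 15 genes wholly inside copy A and 16 inside copy B. Among them were the ribosomal RNA genes rrn16S (Pltd:101012-102502) and rrn23S (Pltd:104691-107500), and the protein genes ycf2, ndhB, rpl2, rpl23 and rps7. The 2 sequences printed here show how a read lying wholly within the repeat fits 2 places. Each runs out of 1 copy of the repeat (capitals) into single-copy sequence (lower case), in the 5′ to 3′ direction. The capitals are alike letter by letter.
copy A, Pltd:110395-110474, plus strand: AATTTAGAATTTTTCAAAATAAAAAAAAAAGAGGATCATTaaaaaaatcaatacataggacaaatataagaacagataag
copy B, Pltd:128175-128254, minus strand: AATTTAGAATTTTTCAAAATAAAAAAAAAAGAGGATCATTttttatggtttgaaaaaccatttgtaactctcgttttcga
The share of sequence that cannot be placed uniquely was larger in the mitochondrial genome than in the chloroplast genome. Of all windows of 100 bases, 34.2% of those of the chloroplast genome occurred more than once in the assembly, nearly all within the chloroplast genome itself (33.9%). For the mitochondrial genome it was 68.2%, and 67.6% had an exact match in chromosome 2. Windows of 50 and of 150 bases gave 35.4% and 33.9% for the chloroplast and 71.1% and 65.7% for the mitochondrion. The longest exact match between the mitochondrial genome and chromosome 2 was 7685 bases long, at 2:3378467-3386151. These shares describe the assembly and not the reads, and the mitochondrial sequence of TAIR10.1 may differ from that of TAIR10, the build that the labels name.

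The rows carry identifiers only. None of the 279 IDs is paired with a symbol in the RefSeq table, and notes on related nuclear genes gave a protein description for 6 chloroplast IDs and 25 mitochondrial IDs. The other rows are therefore given by ID, without a name or a role, and the place of a row in or outside the inverted repeat is not given. Rows of the repeat, its ribosomal RNA genes included, may thus be among those with the most counts.

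Reads per library numbered 22215651 to 24308874. Only 1.41% to 3.61% of them fell to a gene, and gene counts ran from 338784 to 870567 per library. Reads placed on the genome outside any gene of the counted strand made up 59.6% to 89.8%. The sources used here do not give the strand setting of the counting, so counts at any row, nuclear or organelle, may come from the opposite strand. Seedling genes were present in every library: RBCS1A, which encodes the small subunit of Rubisco, had at least 2746 CPM (counts scaled to a common library total), and CASP1, a gene of the root endodermis, had a count in all 24 libraries. CASP2, also of the endodermis, had a count in 20. In whole seedlings, fewer cells of a type and less RNA per cell cannot be told apart. The share of reads that could not be aligned was 0.364% to 0.533% for Col-0 libraries and 1.35% to 1.98% for IP-Svi-0 libraries, without overlap. The share of reads of low alignment quality was 2.39% to 3.33% for Col-0 libraries and 5.10% to 6.34% for IP-Svi-0 libraries, also without overlap. Their part in the differences between accessions was not tested.

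Over all 24 libraries the chloroplast rows held 102240 counts, 0.723% of gene counts, and the mitochondrial rows 108643 counts, 0.769%. Counts were concentrated in few rows. Of the 133 chloroplast rows, 130 had at least 1 count, but 7 had more than 1000 and 91 had between 1 and 99. ATCG00950 alone held 32.4% of the chloroplast counts, with 33170. ATCG01180 followed with 24395, ATCG00920 with 15249 and ATCG01210 with 11281, and these 4 rows made up 82.3%. Of the 146 mitochondrial rows, 81 had a count, 3 had more than 1000 and no other row reached 100. ATMG00030 held 90155 counts, 82.98% of the set, ATMG00020 held 10111 and ATMG01390 held 7778. The 3 together made up 99.4%, which left 599 counts for the other 143 rows. These are shares of counts and not levels per length.

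The chloroplast share of gene counts ranged from 0.0598% to 5.96%, a 99.6-fold span, while total reads spanned 1.09-fold. In Col-0 at 10 °C it was 0.282%, 2.07% and 0.388% in replicates 1, 2 and 3, and at 16 °C it was 5.96%, 1.97% and 0.898%. At 23 °C the values were 0.163%, 0.313% and 0.422%, and at 27 °C they were 0.102%, 0.452% and 0.798%. All 3 Col-0 libraries at 16 °C were above all those at 23 and 27 °C, and 1 of the 3 at 10 °C stood apart from the other 2. In IP-Svi-0 the share was 0.205%, 0.0598% and 0.666% at 10 °C, and 0.126%, 0.601% and 2.23% at 16 °C. It was 0.688%, 1.24% and 0.396% at 23 °C and 0.312%, 0.673% and 0.516% at 27 °C. The 4 IP-Svi-0 groups overlapped each other, and the 2 accessions overlapped at each of the 4 temperatures.

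The mitochondrial share ranged from 0.0276% to 4.70%. In Col-0 it was 0.392%, 4.70% and 0.696% at 10 °C, and 3.76%, 3.47% and 2.35% at 16 °C. It was 0.185%, 0.438% and 0.524% at 23 °C, and 0.156%, 0.501% and 0.922% at 27 °C. The 3 Col-0 libraries at 16 °C and replicate 2 at 10 °C were the 4 highest of all 24. In IP-Svi-0 the share was 0.144%, 0.0276% and 0.520% at 10 °C, and 0.0890%, 0.640% and 1.29% at 16 °C. It was 0.830%, 0.754% and 0.354% at 23 °C, and 0.284%, 0.735% and 0.327% at 27 °C. The accessions did not overlap at 16 °C, where the IP-Svi-0 libraries reached at most 1.29% and the Col-0 libraries were at least 2.35%. They overlapped at 10, 23 and 27 °C. Exact binomial intervals cover counting error only and were narrow beside this spread: for the lowest library the chloroplast interval (95%, Clopper-Pearson) was 0.0547% to 0.0652%.

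Much of the variation lay between replicates. On the log2 scale, 57.3% of the sum of squares of the chloroplast share was within groups, and 44.998% of that of the mitochondrial share. No p is given for either share, because each sums over members chosen with results of these data known. The ratio of mitochondrial to chloroplast counts averaged 1.502 over the Col-0 groups and 0.803 over the IP-Svi-0 groups, at the 4 temperatures. It did not overlap between accessions at 10 °C (1.39 to 2.28 against 0.462 to 0.781) or at 27 °C (1.11 to 1.52 against 0.634 to 1.09), and overlapped at 16 and 23 °C.

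**Figure D1:**
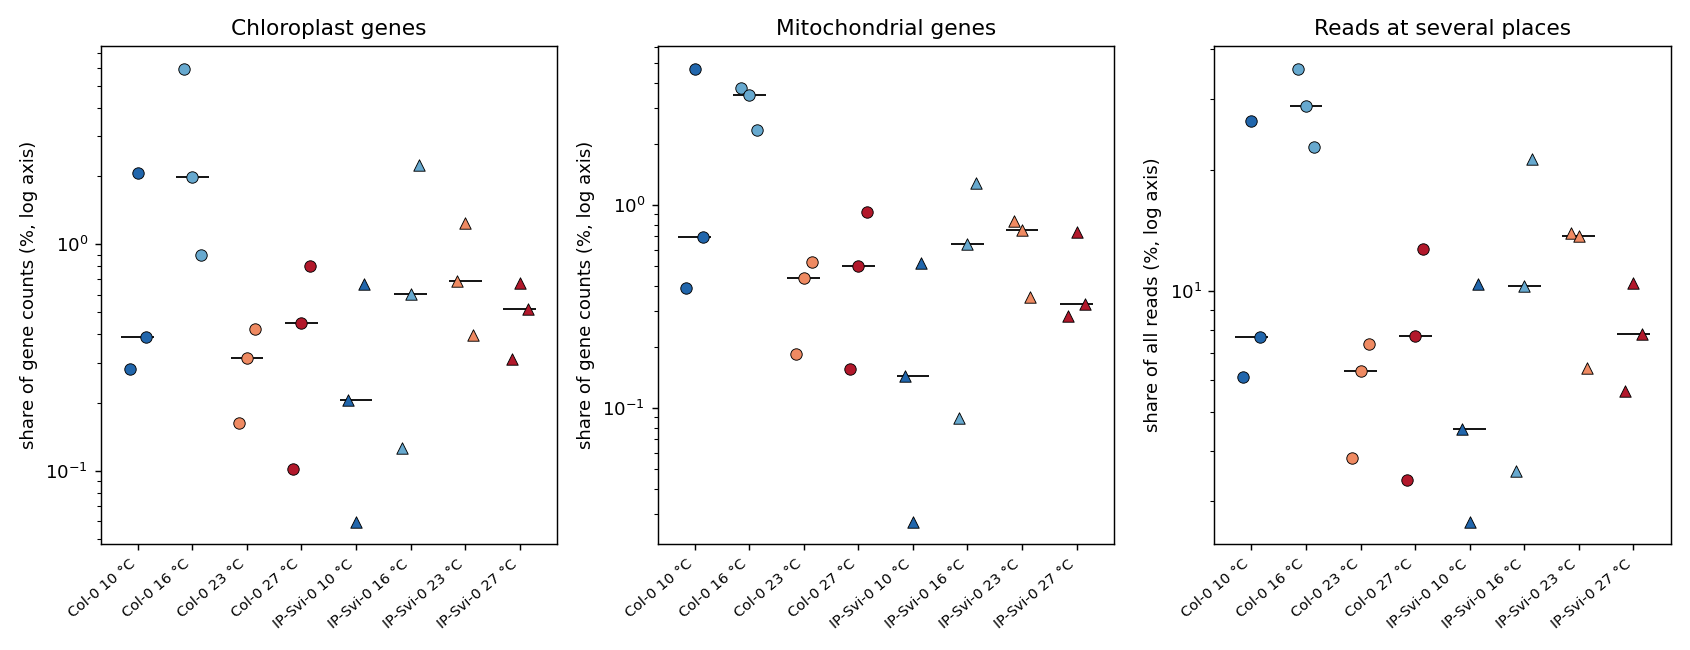
Share of gene counts at chloroplast rows (left) and mitochondrial rows (middle) and share of all reads placed at several positions (right), in percent on log axes, for 8 groups. Each point is 1 library (circles Col-0, triangles IP-Svi-0) and each line is the median of 3. The 3 Col-0 libraries at 16 °C and replicate 2 of Col-0 at 10 °C lie high in all 3 panels.

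The leading rows moved together from library to library, though not always in the same order within a group. In CPM scaled by TMM (a factor that evens out library composition), ATCG00950 was 872, 6372 and 1272 in Col-0 at 10 °C, and 21596, 6533 and 4152 at 16 °C. It was 505, 989 and 1686 at 23 °C and 303, 1619 and 3626 at 27 °C. In IP-Svi-0 it was 521, 158 and 2170 at 10 °C, 198, 1950 and 8549 at 16 °C, 2443, 4375 and 1615 at 23 °C, and 1078, 2146 and 1516 at 27 °C. The lowest value in Col-0 at 16 °C was above all values of Col-0 at 23 and 27 °C, and the IP-Svi-0 values at 16 °C ran from 198 to 8549. Within the chloroplast counts ATCG00950 made up 16.7% to 40.3%, ATCG01180 14.4% to 33.5%, ATCG00920 10.5% to 18.4% and ATCG01210 4.62% to 20.7%. The 4 rows together made up 51.7% of the set in replicate 1 of IP-Svi-0 at 16 °C and 92.0% in replicate 1 of Col-0 at 16 °C.

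ATMG00030 was 3477, 61032 and 7614 CPM in Col-0 at 10 °C by the same scale, and 34096, 35912 and 27872 CPM at 16 °C. It was 1328, 3293 and 4887 CPM at 23 °C and 1074, 3550 and 8100 CPM at 27 °C. In IP-Svi-0 it was 946, 187 and 4970 CPM at 10 °C, 671, 5250 and 9637 CPM at 16 °C, 7498, 6508 and 3252 CPM at 23 °C, and 2467, 5686 and 1810 CPM at 27 °C. The 3 Col-0 values at 16 °C and 1 at 10 °C were at least 27872 CPM and all other values at most 9637. The share of mitochondrial counts at ATMG00030 ran from 66.2% to 90.3%, and that at ATMG01390 from 2.64% to 14.9%.

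**Figure D2:**
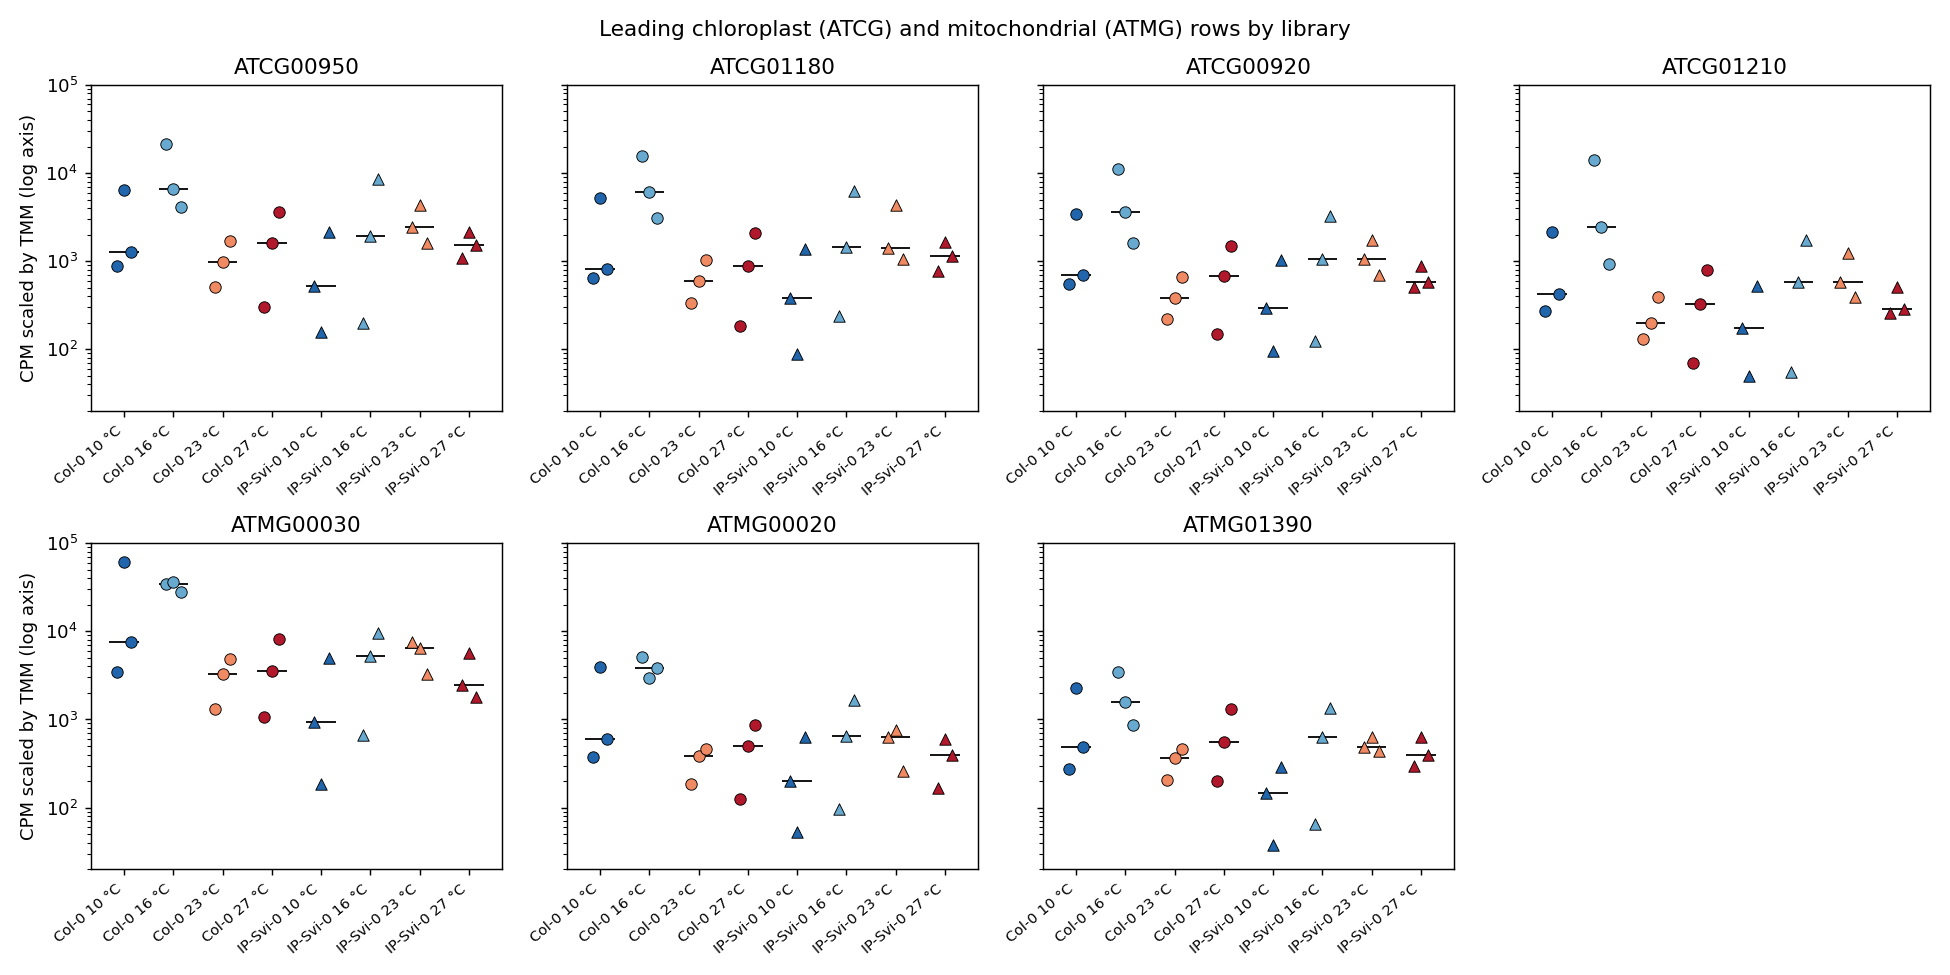
CPM scaled by TMM (log axis) at the 4 leading chloroplast rows (top) and the 3 leading mitochondrial rows (bottom) in 8 groups. Each point is 1 library (circles Col-0, triangles IP-Svi-0) and each line the median of 3. The order of libraries within a group is much the same in all panels, with IP-Svi-0 at 16 °C spread from 198 to 8549 at ATCG00950.

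Reads placed at several positions were counted in a line of their own, outside the genes. They made up 6.10%, 26.5% and 7.71% of all reads in Col-0 at 10 °C, and 35.8%, 29.0% and 22.9% at 16 °C. At 23 °C they were 3.83%, 6.32% and 7.40% and at 27 °C they were 3.40%, 7.72% and 12.7%. In IP-Svi-0 they were 4.55%, 2.67% and 10.4% at 10 °C, 3.57%, 10.3% and 21.3% at 16 °C, 13.9%, 13.7% and 6.44% at 23 °C, and 5.65%, 10.5% and 7.83% at 27 °C. In 5 libraries the share was over 20%: all 3 of Col-0 at 16 °C, replicate 2 of Col-0 at 10 °C and replicate 3 of IP-Svi-0 at 16 °C. The sources used here do not say whether such a read entered this line once or once per position. Within Col-0 the share differed between temperatures, with means from 5.85% at 23 °C to 29.2% at 16 °C. An exact permutation test on the sum of squares between groups gave p = 0.0303 (369600 arrangements). Without replicate 1 of Col-0 at 16 °C the p of that exact test was 0.0552, and without replicate 1 at 23 °C it was 0.0506. Within IP-Svi-0 the same exact permutation test gave p = 0.536. The mean over 4 temperatures was 4.87 percentage points below Col-0 in IP-Svi-0 (9.24% against 14.1%), which did not pass an exact permutation test within temperatures (160000 arrangements, two-sided, p = 0.134). The accessions did not overlap at 16 °C, with at most 21.3% in IP-Svi-0 libraries while Col-0 libraries had at least 22.9%, and at 23 °C the mean was 5.52 points higher in IP-Svi-0.

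Both organelle shares followed the share of reads at several places. Across the 24 libraries the chloroplast share gave Pearson's r = 0.872 and Spearman's rho = 0.985, and the mitochondrial share gave r = 0.925 and rho = 0.956. These are descriptions with no p, the shares being sums over chosen members, and the points share the library and its depth. Without the 2 libraries farthest from the median share of reads at several places, r was 0.904 for the chloroplast and 0.876 for the mitochondrion. The relation was present within Col-0 (rho 0.986 and 0.958, n = 12) and within IP-Svi-0 (rho 0.993 and 0.986, n = 12). It was also present in deviations from the group means, with r = 0.765 for the chloroplast and 0.887 for the mitochondrion, and on the log2 scale with r = 0.958 and 0.971. In 7 of 8 groups the 3 libraries stood in the same order by chloroplast share as by reads at several places, the exception being IP-Svi-0 at 23 °C. By mitochondrial share the order was the same in 8 of 8. On log2 scales the slope was 1.44 for the chloroplast and 1.60 for the mitochondrion, so that each doubling of the share of reads at several places went with 2.70 and 3.04 times the organelle share. These slopes include a fall of the denominator, since gene counts were lower where reads at several places were more frequent (rho = -0.77). As shares of all reads, organelle counts gave rho = 0.925 for the chloroplast and 0.967 for the mitochondrion. Organelle counts were few beside reads at several places, between 1.15 and 4.31 per 1000 such reads.

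**Figure D3:**
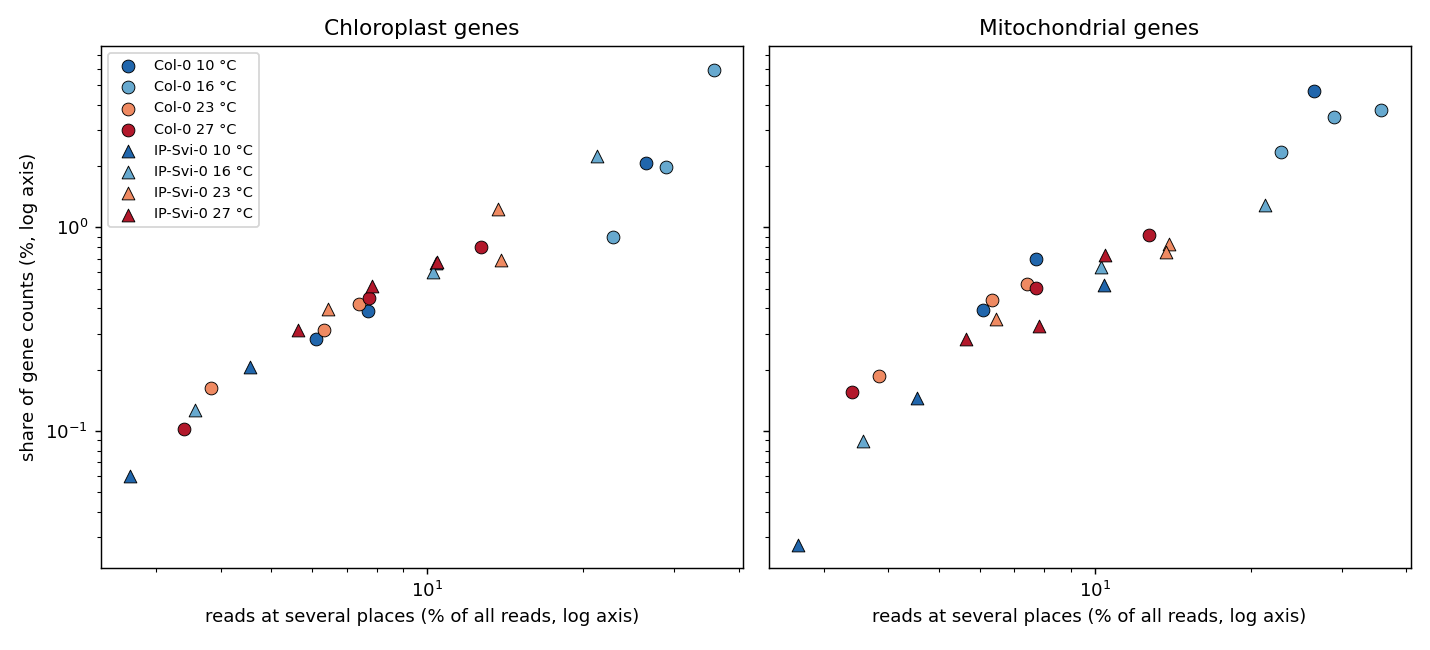
Share of gene counts at chloroplast rows (left) and mitochondrial rows (right) against the share of reads placed at several positions, all in percent on log axes. Each point is 1 of 24 libraries, coloured by temperature, with circles for Col-0 and triangles for IP-Svi-0. Points of all 8 groups rise together, with Spearman's rho = 0.985 on the left and 0.956 on the right.

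The relation did not rest on the leading rows alone for the chloroplast. Without its 4 leading rows the chloroplast share still gave rho = 0.936 over the 24 libraries. Without the 3 leading rows the mitochondrial share gave rho = 0.676, from only 4 to 73 counts per library. Gene by gene, all 41 chloroplast rows with enough counts to test had a positive rho with the share of reads at several places, with a median of 0.830 and a range from 0.587 to 0.974, and 27 were over 0.8. The 3 mitochondrial rows had 0.920 to 0.970. Among 10053 nuclear genes tested the median was -0.02 and 5 were over 0.8. A row with few counts can pass the filter through the libraries in which it is high. The values of the 41 and the 3 rows therefore describe the rows kept and not the sets. The row with the weakest relation was ATCG00390, at 0.587. A list of 6 nuclear rows that hold or adjoin ribosomal RNA genes, taken as a sum, moved with the same quantity. Its share of gene counts ran from 0.0254% to 2.46%, with rho = 0.970. Most of its counts lay at 1 row, AT3G41768, with 33376, and the next row, AT2G01010, had 2068. The part of ribosomal RNA in the organelle shares was not tested.

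Mitochondrial rows other than the leading 3 held few counts, with or without a named nuclear relative. The notes named a relative on chromosome 2 for 53 rows, not all of them in the copy of the mitochondrial genome. These 53 rows had 120 counts in all 24 libraries together, 24 of them had none, and the highest had 28. Of the other 93 rows 41 had no count, and outside the 3 leading rows they held 479. The 55 nuclear relatives of the 53 rows held 377 counts. The 141 rows of the chromosome 2 region held 972 counts, 18 to 85 per library. Among the rows that the notes describe, ATMG01090 and ATMG01080, both described as subunit 9 of the ATP synthase, had 8 and 3 counts, ATMG01275, a subunit of NADH dehydrogenase, had 5, and ATMG00730, subunit 3 of cytochrome c oxidase, had 4. These rows had too few counts for the test between groups described next.

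The accessions were compared row by row with edgeR's quasi-likelihood test over 10097 genes, of which 44 were members (41 chloroplast, 3 mitochondrial). The other 235 members had too few counts. A row can pass that filter through the group in which it is high, so the counts of called rows describe these rows and not the sets. Rows were called at a Benjamini-Hochberg adjusted p under 0.05. At 10 °C, 19 members were lower in IP-Svi-0 (16 chloroplast and 3 mitochondrial) and 0 higher, where 14.4% of all genes tested were called lower and 24% were called in either direction. The median log2 change of the 44 was -1.88. At 16 °C, 11 were lower (9 and 2) and 0 higher, with 8.22% of all genes called and 5.82% called lower, and the median was -1.70. At 23 °C, where 7.93% of all genes were called, 0 members were called by edgeR and 0 by DESeq2, 5 had an unadjusted p under 0.05, and the median was 1.02. At 27 °C, where 8.04% were called, again 0 were called by either tool, 1 had an unadjusted p under 0.05, and the median was 0.28. DESeq2 called 14 members at 10 °C and 2 at 16 °C, all lower. The counts also moved with the filter on low counts. Without it, 46, 38, 12 and 1 of 211 members were called by edgeR at 10, 16, 23 and 27 °C, lower in IP-Svi-0 at 10 and 16 °C and higher at 23 and 27 °C. When only the 2 groups compared were fitted, edgeR called 20 members lower at 16 °C, 9 higher at 23 °C and 1 higher at 27 °C. In the main fit the median of all genes tested was within 0.05 of 0 in each of these comparisons. The shares of all genes called, here and below, also belong to the main fit. They are not given here for the alternatives or for libraries left out, so member counts under those settings describe the members alone. Whether those counts moved along with the calls over all genes is not shown.

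ATMG00030 had the largest change among the mitochondrial rows at 10 °C, with a log2 change of -3.57 ± 0.88 (SE, n = 3 against 3, edgeR adjusted p = 0.00277). The 2 other mitochondrial rows were lower too: ATMG01390 with -2.68 ± 0.71 (edgeR adjusted p = 0.00542) and ATMG00020 with -2.49 ± 0.75 (edgeR adjusted p = 0.0136). Among the chloroplast rows ATCG01050 changed most, at 25.1, 214 and 34.9 CPM in the Col-0 libraries against 5.21, 1.21 and 15.5 CPM in those of IP-Svi-0, which do not overlap, a log2 change of -3.60 ± 0.70 (edgeR adjusted p = 0.000198). ATCG00670, described in the notes as a plastid-encoded ClpP, the proteolytic subunit of a chloroplast protease, was at 3.35, 80.8 and 18.6 CPM in the Col-0 libraries against 7.30, 1.21 and 11.6 CPM in those of IP-Svi-0. These overlap, and replicate 2 of Col-0 stands far above the rest. Its log2 change was -2.09 ± 0.68 (edgeR adjusted p = 0.0219). ATCG00670 had 14 counts in the 3 IP-Svi-0 libraries, and ATCG01050 had 219 over all 24 libraries, so both changes rest on few counts. The 4 leading chloroplast rows were not called at 10 °C, with log2 changes from -1.58 to -1.93.

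At 16 °C, ATCG01210 had a log2 change of -2.88 ± 0.86 (edgeR adjusted p = 0.0298) and ATMG00030 one of -2.65 ± 0.84 (edgeR adjusted p = 0.0433). ATCG00670 was again lower, at 38.8, 31.5 and 20.5 CPM in the Col-0 libraries against 4.98, 7.32 and 8.74 CPM in those of IP-Svi-0. These do not overlap, but the IP-Svi-0 values come from 13 counts in all. The log2 change was -2.15 ± 0.69 (edgeR adjusted p = 0.0472). In the mean of the 4 temperatures 8 members were lower (5 chloroplast and 3 mitochondrial) and 0 higher, against 32.7% of all genes called and 16.7% called lower. DESeq2 called 4, and edgeR without the filter on low counts called 27, all lower. There ATMG00030 changed by -1.43 ± 0.40 on the log2 scale (edgeR adjusted p = 0.00608) and ATCG01050 by -1.37 ± 0.47 (edgeR adjusted p = 0.0235).

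These counts of calls rested on few libraries. Without replicate 2 of Col-0 at 10 °C, 1 member was called at 10 °C and 3 in the mean, and without replicate 3 of IP-Svi-0 at 10 °C, 45 and 22. Without replicate 1 of Col-0 at 10 °C the counts were 37 and 18. Other single libraries gave 11 and 12 at 10 °C (replicates 2 and 1 of IP-Svi-0), and in the mean 14 (replicate 3 of Col-0 at 10 °C), 13 and 4 (replicates 1 and 3 of Col-0 at 27 °C), 5 (replicate 3 of Col-0 at 23 °C) and 5 (replicate 1 of IP-Svi-0 at 16 °C). At 16 °C the count was 0, 4 and 20 without replicates 1, 2 and 3 of IP-Svi-0, 5, 3 and 7 without those of Col-0, and 17 without replicate 2 of Col-0 at 10 °C. Without all 5 libraries over 20% of reads at several places, 1 member was called at 10 °C.

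The share of reads at several places was then entered in the fit as a covariate (log2), a choice made after seeing the data. With it 5 members were called at 10 °C, each of them also among the 19, and 0 at 16 °C. The median log2 change of the 44 members at 10 °C moved from -1.88 to -0.11, and at 16 °C from -1.70 to 0.15. In the mean of the 4 temperatures 9 were called, of which 6 were among the 8, and the median moved from -0.60 to -0.12. The covariate differs between the groups and organelle RNA may itself enter it, so that what it takes out of a comparison cannot be told apart from a difference between the groups.

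**Figure D4:**
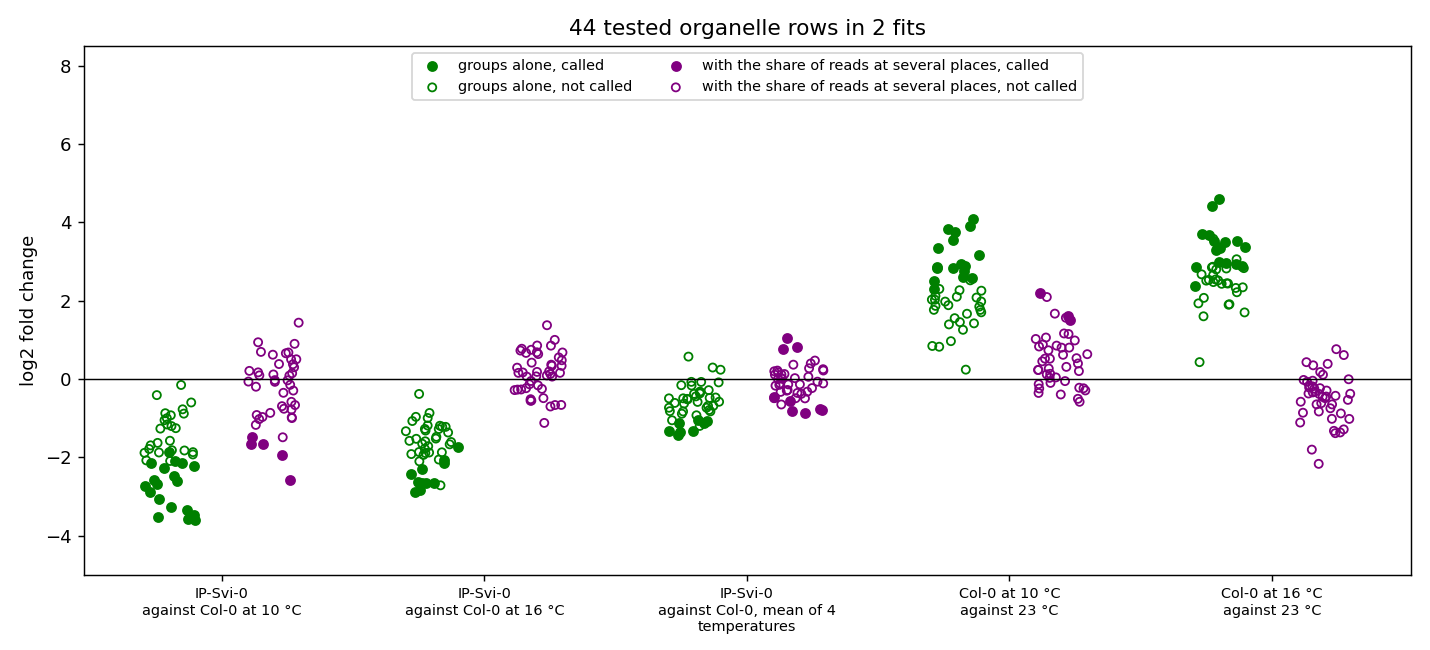
Log2 fold change of the 44 tested members in 5 comparisons, in the fit with groups alone (green) and with the log2 share of reads at several places as a covariate (purple). Each point is 1 member, filled where its adjusted p was under 0.05. At 16 °C the median of the members moves from -1.70 to 0.15 between accessions, and for Col-0 at 16 against 23 °C from 2.81 to -0.41.

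Temperatures were compared with 23 °C within each accession, and the comparisons of an accession share its 23 °C libraries. In Col-0 at 10 °C, 17 members were higher than at 23 °C (16 chloroplast and 1 mitochondrial) and 0 lower, where 6.69% of all genes were called and 3.83% were called higher. The median of the members was 2.11. In Col-0 at 16 °C also 17 were higher (15 and 2) and 0 lower, where 1.23% of all genes were called and 0.515% were called higher, and the median was 2.81. DESeq2 called 8 members at 10 °C and 5 at 16 °C, all higher, and edgeR without the filter on low counts called 43 and 49. When only the 2 groups compared were fitted, 26 were called at 16 °C. At 27 °C, 0 members were called by edgeR and by DESeq2, 0 had an unadjusted p under 0.05, and 0.109% of all genes were called.

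ATCG01010 rose most at 10 °C: it was at 13.4, 198 and 39.5 CPM at 10 °C and 1.25, 8.06 and 1.99 CPM at 23 °C, without overlap, a log2 change of 4.09 ± 0.84 (edgeR adjusted p = 0.00136). At 16 °C it was at 110, 78.8 and 69.7 CPM, a log2 change of 4.41 ± 0.82 (edgeR adjusted p = 0.00204). ATCG01010 had 251 counts over all 24 libraries, so its 23 °C values rest on few counts. The leading chloroplast rows were called at 16 °C: ATCG01210 by 4.60 ± 0.94 (edgeR adjusted p = 0.00586), ATCG00920 by 3.69 ± 0.83, ATCG01180 by 3.67 ± 0.89 and ATCG00950 by 3.35 ± 0.88 (edgeR adjusted p = 0.0465). ATMG00030 rose by 3.36 ± 0.87 (edgeR adjusted p = 0.0415) and ATMG00020 by 3.53 ± 0.78 (edgeR adjusted p = 0.0123). ATCG00530 is described in the notes as related to CemA, an envelope protein of the chloroplast. It was at 23.9, 37.8 and 36.9 CPM at 16 °C and 0, 4.03 and 5.98 CPM at 23 °C, which do not overlap. The 23 °C values come from 6 counts in all, and the log2 change was 3.36 ± 0.85 (edgeR adjusted p = 0.0342). At 10 °C none of the 4 leading chloroplast rows was called, and ATMG00030 rose by 2.92 ± 0.85 (edgeR adjusted p = 0.0289).

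The call at 10 °C in Col-0 depended on replicate 2, the library with 26.5% of reads at several places: without it 0 of 44 members were called, and without replicate 1 it was 38. Without replicates 1 and 2 of Col-0 at 23 °C it was 6 and 9. At 16 °C the count fell to 1 and 4 without replicates 1 and 2 of Col-0 at 23 °C, and to 6 without either replicate 1 or 2 of Col-0 at 16 °C. It was 34, 33 and 26 without replicates 1, 2 and 3 of Col-0 at 10 °C and 30 without replicate 3 of IP-Svi-0 at 10 °C. With the covariate, 3 members were called at 10 °C and 0 at 16 °C, and the medians were 0.48 and -0.41. All 3 Col-0 libraries at 16 °C were among the 5 over 20%, so the comparison cannot be made without them.

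In IP-Svi-0, 3 members were lower at 10 °C than at 23 °C (ATCG00390, ATCG00620 and ATCG01130) and 0 higher, where 9.98% of all genes were called lower and 15.8% in either direction, and the median of the members was -0.68. At 16 °C and at 27 °C, 0 were called by either tool, with 1 unadjusted p under 0.05 in each case and medians of 0.11 and -0.59, where 0.792% and 0% of all genes were called. Without the filter on low counts edgeR called 15 members at 10 °C, 14 of them lower, 1 at 16 °C and 0 at 27 °C, and with only the 2 groups fitted it called 7 at 10 °C. ATCG00390 was at 0, 3.63 and 1.94 CPM at 10 °C, 7.47, 21.95 and 29.7 CPM at 16 °C, 44.7, 33.0 and 28.8 CPM at 23 °C and 27.5, 27.3 and 17.3 CPM at 27 °C. The 3 libraries at 10 °C, with 4 counts in all, were below all 9 others, and the log2 change against 23 °C was -4.19 ± 0.76 (edgeR adjusted p = 0.000157). It changed also with the covariate in the fit. In Col-0 the row was at 1.68, 60.6 and 20.9 CPM at 10 °C and 10.0, 26.9 and 17.9 CPM at 23 °C, which overlap. Without replicate 3 of IP-Svi-0 at 10 °C, 11 members were called in this comparison, with the covariate 9, of which 2 were among the 3, and without the 5 libraries over 20% it was 5.

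The temperature response differed between the accessions in 3 members, tested with the 3 interaction terms together, where 1.43% of all genes were called. They were the same 3 rows, with edgeR adjusted p = 0.0496 for ATCG00390, 0.0304 for ATCG00620 and 0.0301 for ATCG01130. DESeq2 called 0 members in this test, and the fit with the covariate 0, while edgeR without the filter on low counts called 32. With single libraries left out the count ran from 0 (each of replicates 1 and 2 of IP-Svi-0 at 10 and at 23 °C, and replicate 1 of Col-0 at 23 °C) to 18 (replicate 3 of IP-Svi-0 at 10 °C). It was 14 without replicate 1 of Col-0 at 10 °C, 1 without replicate 2 of Col-0 at 23 °C, and 5 to 7 without 6 other libraries.

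Nuclear genes whose products serve organelle transcription and RNA handling were taken as a list of 27, of which 25 had enough counts. In the mean of the 4 temperatures 8 were higher in IP-Svi-0 and 0 lower, where 16% of all genes were called higher, and the median of the list was 0.23. CSP41A, which encodes a chloroplast RNA-binding endonuclease, averaged 567 ± 170 CPM (SD, n = 12) in IP-Svi-0 against 265 ± 62.3 CPM for Col-0, a log2 difference of 1.07 ± 0.14 (edgeR adjusted p = 5.52e-08). Its partner CSP41B rose by 1.01 ± 0.14 (edgeR adjusted p = 3.69e-07). SIG5, a sigma factor of the plastid polymerase that responds to light and stress, was at 28.6 ± 21.8 CPM in IP-Svi-0 against 10.4 ± 4.41 CPM for Col-0, a log2 difference of 1.27 ± 0.30 (edgeR adjusted p = 0.000975). GUN1, a plastid protein of retrograde signalling, rose by 0.69 ± 0.14 (edgeR adjusted p = 0.000121). The other called genes were FSD3, PTAC6, MURE and PTAC7, whose products are associated with the plastid polymerase, with log2 differences from 0.37 to 0.67. At 10 °C 5 of the list were higher and at 16 °C 3, with 9.59% and 2.4% of all genes called higher, and at 23 and 27 °C 0. Within Col-0 none was called at any temperature, and in IP-Svi-0 at 10 against 23 °C 2 were higher, SIG1 and PTAC7, where 5.77% of all genes were called higher. With the share of reads at several places rho was -0.39 for CSP41A, -0.17 for CSP41B, -0.09 for SIG5 and -0.18 for GUN1. Among the 8 genes called in the mean, CSP41A shares at most 286 exon bases with any 1 gene on the other strand, PTAC7 225, CSP41B 19 and PTAC6 18. Their counts are uncertain, and with the strand setting unknown those of the other listed genes may be too.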

How the data were processed

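The deposited table holds raw counts of reads per gene for 24 libraries, and 5 lines that tally the remaining reads. Per the submitters' processing notes the authors used FastQC, HISAT2, HTSeq, Cufflinks and Cuffdiff with the TAIR10 build. Versions, strand setting and parameters are absent from the sources used here. All 24 libraries were used. Shares were computed over gene counts. CPM were scaled by TMM. Genes were kept by filterByExpr (minimum count 10) and fitted with 1 mean per group in edgeR 4.0.16 (R 4.3.3), with quasi-likelihood tests and Benjamini-Hochberg adjustment over the 10097 genes tested. DESeq2 1.42.0 was an alternative. Standard errors are the log2 change over the root of F. The procedure was tested on simulated counts of 10097 genes, with 200 changed genes drawn from all of them, for the accessions at 10 °C. It recovered 17% of 2-fold and 93% of 4-fold changes, and 3.51% of calls were false. The members varied more between libraries (median edgeR coefficient of variation 0.579, against 0.225 in common over all genes). A comparison with 0 members called therefore does not show that none changed. Repeated windows, the inverted repeat and sequences were computed from the RefSeq assembly TAIR10.1, which also gave symbols for the nuclear list. Intervals are Clopper-Pearson (95%).

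The members and the gene lists were chosen with earlier results of these data known. Rows named are those with the most counts, those with a description in the notes, and among the called rows some with the largest change in a comparison. A planned naming by gene symbol could not be applied to the organelle IDs. The 5 nuclear genes over 0.8 in rho were named after their values were seen.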

Additional observations from a re-analysis of the deposited data

Results flagged for a closer look

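The response to temperature differed between Col-0 and IP-Svi-0 in 3 chloroplast rows, by a test of the difference itself (3 interaction terms together). The edgeR adjusted p was 0.0496 for ATCG00390, 0.0304 for ATCG00620 and 0.0301 for ATCG01130, with 3 libraries per group. ATCG00620 averaged 7.27 ± 8.88 CPM (SD, n = 3) at 10 °C and 42.8 ± 19.2 at 23 °C in IP-Svi-0, and 33.4 ± 34.7 and 15.2 ± 5.56 in Col-0. ATCG01130 averaged 9.51 ± 13.6 CPM at 10 °C and 48.4 ± 21.8 at 23 °C in IP-Svi-0, and 88.2 ± 116 and 18.6 ± 10.7 in Col-0. ATCG00390 averaged 1.86 ± 1.82 CPM at 10 °C and 35.5 ± 8.24 at 23 °C in IP-Svi-0, and 27.7 ± 30.0 and 18.3 ± 8.43 in Col-0. Reads at several places averaged 5.88% at 10 °C and 11.4% at 23 °C in IP-Svi-0, and 13.5% and 5.85% in Col-0. With that share as a covariate the edgeR adjusted p was 0.291, 0.769 and 0.604 for ATCG00390, ATCG00620 and ATCG01130. When single libraries were left out, the adjusted p ran from 0.00250 to 0.252 for ATCG00390, from 0.00388 to 0.0896 for ATCG00620 and from 0.00228 to 0.0883 for ATCG01130.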

How the results depend on the processing

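The counts of called members in this section stand without the share of all genes called in the same fit. Without a filter on low counts (211 members tested) and with at least 1 CPM in 3 libraries, edgeR called 46 and 49 members between accessions at 10 °C, 38 and 37 at 16 °C, 12 and 12 at 23 °C, 1 and 1 at 27 °C and 27 and 28 in the mean. Against 23 °C they called 43 and 44 in Col-0 at 10 °C, 49 and 48 at 16 °C, 15 and 16 in IP-Svi-0 at 10 °C, 1 and 1 at 16 °C, and 32 and 32 in the interaction. DESeq2 called 2 members between accessions at 16 °C, 4 in the mean, 8 and 5 in Col-0 at 10 and 16 °C, and 0 in the interaction. Fitting only the groups compared gave 20, 9 and 1 between accessions at 16, 23 and 27 °C, 26 in Col-0 at 16 °C and 7 in IP-Svi-0 at 10 °C. Of 84 same-numbered pairs of libraries 20 correlated above 0.1, with a median of 0.030 against -0.0084 for other pairs. These values cannot exclude that the numbers pair the samples. The replicate block gave 26 in Col-0 at 16 °C and 6 in the interaction, with other counts within 1.5 times. The covariate, chosen after seeing the data, gave 5, 0 and 1 between accessions at 10, 16 and 27 °C, 3 and 0 in Col-0 at 10 and 16 °C, 9 in IP-Svi-0 at 10 °C and 0 in the interaction. Leaving out the 5 libraries over 20%, also added later, gave 1 and 2 between accessions at 10 and 23 °C, 0 in Col-0 at 10 °C and 5 in IP-Svi-0 at 10 °C. Leaving out single libraries gave 1 to 45, 0 to 20 and 0 to 1 between accessions at 10, 16 and 23 °C, 3 to 22 in the mean, 0 to 38 and 1 to 34 in Col-0 at 10 and 16 °C, 2 to 11 in IP-Svi-0 at 10 °C and 0 to 18 in the interaction (0 without replicate 1 or 2 of IP-Svi-0 at 10 or 23 °C or replicate 1 of Col-0 at 23 °C, 1 without replicate 2 of Col-0 at 23 °C). The distance between the lowest and the highest temperature mean of reads at several places in Col-0 ran from 20.1 to 26.5 points when single libraries were left out. Within IP-Svi-0 r was 0.949 for the chloroplast and 0.984 for the mitochondrion. The mean log2 difference of the chloroplast share between accessions was -0.44. It was -0.20 over all reads and ran from -0.69 (without replicate 3 of IP-Svi-0 at 16 °C) to -0.17 (without replicate 1). That of the mitochondrial share was -1.31, and ran from -1.56 (without replicate 3 of IP-Svi-0 at 10 °C) to -1.03 (without replicate 1 of IP-Svi-0 at 16 °C).

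The covariate turned the sign of 18 log2 changes. For ATCG00950 they became 0.14, 0.33 and 0.11 between accessions at 10 °C, 16 °C and in the mean, and -0.59 and -0.88 in Col-0 at 10 and 16 °C. ATCG01180 gave 0.36 and 0.25 between accessions at 16 °C and in the mean, and -0.36 and -0.46 in Col-0 at 10 and 16 °C, and without replicate 2 of Col-0 at 10 °C 0.013 in the mean (lowest of the single-library values -0.81). ATCG00920 gave 0.058, 0.020 and -0.19 (at 16 °C, in the mean and in Col-0 at 16 °C), ATCG01210 -0.057 in Col-0 at 10 °C, ATMG00030 -0.37 and ATMG00020 -0.027 in Col-0 at 16 °C, and ATMG01390 0.18 between accessions at 16 °C and -0.24 and -0.83 in Col-0 at 10 and 16 °C. The cause was not tested. Alternatives without ribosomal and transfer RNA genes, without genes of the inverted repeat and without members overlapping the other strand were not run, because the IDs are not paired with these classes.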

Other observations

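Outside the organelle genomes 5 of 10053 nuclear genes had a rho over 0.8 with the share of reads at several places, and they were named after their values were seen. They were AT3G41768 (rho 0.976, 33376 counts, annotated as ribosomal RNA), AT2G01021 (0.942), AT3G41762 (0.932), AT2G01010 (0.854, ribosomal RNA) and AT2G01020 (0.819, ribosomal RNA). AT2G01021 and AT3G41762 are annotated as protein-coding. Chloroplast and mitochondrial shares followed each other with rho = 0.937 over the 24 libraries, which share the denominator. Total gene counts were lower where reads at several places were more frequent (rho = -0.77), and reads outside genes were fewer (rho = -0.88).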
